A study of Mus musculus with 8 samples.

Results

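Atf4, Atf3, Atf5 and Ddit3, which encodes the protein known as CHOP, are 4 genes for transcription factors of the integrated stress response. They were followed through every probe set whose array annotation names 1 of them and no other gene, which gave 6 of the 12488 probe sets in the table and 4 of the 8251 genes that a tested probe set names alone. Atf4, Atf5 and Ddit3 had 1 probe set each and Atf3 had 3.

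The integrated stress response starts when a stress kinase such as PERK phosphorylates the translation factor eIF2α, which lowers most protein synthesis. The messenger RNAs of ATF4, ATF5 and CHOP carry upstream reading frames through which their translation is favoured in that state, so the transcript levels measured on an array do not report protein. All 4 proteins bind DNA through a basic leucine zipper and pair with each other or with relatives of the C/EBP and AP-1 families. ATF4 is known as an activator of amino acid transport, aminoacyl-tRNA charging and of further factors including ATF3 and CHOP. ATF3 is a repressor or activator induced by many stresses, CHOP is known for its part in cell death during prolonged stress of the endoplasmic reticulum, and ATF5 is known to be abundant in liver and for its part in mitochondrial stress.

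Total RNA of mouse liver was hybridised to 8 Affymetrix MG-U74Av2 arrays, 2 in each of 4 groups: untreated Atf4+/+, untreated Atf4-/-, AP20187-treated Atf4+/+ and AP20187-treated Atf4-/-. Within a group, the names replicate 1 and replicate 2 were given here by the order of the arrays and are not the authors' numbers. All mice, controls included, carried the TTR::Fv2E-PERK transgene, in which the transthyretin promoter directs a PERK fusion protein to liver. AP20187 is a drug that joins Fv2E domains and so activates the fused kinase. The mice were siblings from a mixed FvB/n; Swiss Webster background, and the transgene came from 1 low expressing line. The labels call the controls untreated, whereas the title of the series calls them mock-injected. No label gives age, AP20187 dose or time after treatment. Nor does one say whether arrays of a group came from separate animals, so the spread behind the p-values may be technical.

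The deposited values are linear ratios, for most probe sets to the probe set's own median over the 8 arrays, so a ratio compares arrays within 1 probe set and says nothing of the level of a gene against another gene. Differences were computed on log2(ratio + 0.1), which understates changes of low ratios. Each p-value came from limma, a linear model fitted to all 12422 tested probe sets, with Benjamini-Hochberg adjustment over all of them and a threshold of 0.05. Signal over background is unknown here, and precision is limited by how few arrays there are. Of 9 hepatocyte marker genes measured, the mean of the log2 values, centred for each gene on its own mean, ranged from -0.40 to 0.27 over the arrays, and of 22 markers of other cell types from -0.22 to 0.26. No list value shows whether a defining marker was present, because ratios carry no level. In bulk liver, fewer cells of a type and less RNA per cell cannot be told apart.

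The Atf4 probe set and the labels disagreed in the untreated arrays. The Atf4 ratio was 2.36 and 0.30 in replicates 1 and 2 of the arrays labelled untreated Atf4+/+, and 0.29 and 1.67 in replicates 1 and 2 of those labelled untreated Atf4-/-. Replicate 2 of either group therefore read at the level of the other genotype. In addition, the source name of untreated Atf4-/- replicate 1 gives Atf4-/- and its description Atf4+/+, and the source name was used. The label of untreated Atf4+/+ replicate 1 was taken from its description, those of the other arrays from their source names. No source used here says whether the probe set lies inside the deleted part of Atf4, so its ratio may not check the genotype. Genotype is therefore given as labelled, and differences of Atf4, Atf3 104156_r_at, Ddit3 and Atf5 that involve untreated arrays are given with and without replicate 2 of both untreated groups, called here the doubted arrays. Without them each untreated group holds 1 array, assumed to vary like the others. The doubted arrays were picked by their Atf4 ratios, so Atf4 differences without them follow in part from that choice.

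The sequences just upstream of Atf3 and Ddit3 are shown because these genes had the highest AP20187 effects among the factors. Both are from RefSeq, build GRCm38.p6, on the strand of the gene and end at the base before the annotated start. The Atf3 window is chr1:191183334-191183583 on the minus strand, and the Ddit3 window is chr10:127290543-127290792 on the plus strand. Capitals mark matches to 3 searched motifs.
Atf3: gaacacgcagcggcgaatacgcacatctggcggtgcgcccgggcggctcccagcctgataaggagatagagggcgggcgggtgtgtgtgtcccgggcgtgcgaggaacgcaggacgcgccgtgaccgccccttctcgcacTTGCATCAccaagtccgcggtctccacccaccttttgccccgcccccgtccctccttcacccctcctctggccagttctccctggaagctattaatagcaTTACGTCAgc
Ddit3: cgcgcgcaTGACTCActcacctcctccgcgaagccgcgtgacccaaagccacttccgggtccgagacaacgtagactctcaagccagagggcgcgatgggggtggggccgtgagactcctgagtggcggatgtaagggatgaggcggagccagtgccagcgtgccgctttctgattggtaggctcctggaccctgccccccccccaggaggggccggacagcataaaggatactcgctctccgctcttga
In the Atf3 window the first capitals, 110 to 103 bases before the start, match TGATGCAA on the reverse strand, the core of the amino acid response element, to which ATF4 is known to bind with C/EBP partners. This motif, sought on both strands, was found in 0.791% of the 32851 windows of that length in the table, some of which belong to 1 gene with several starts. The second capitals, 10 to 3 bases before the start, match TNACGTCA, a loose form of the cyclic AMP response element that ATF factors are known to bind, found in 2.52% of windows. The stricter TGACGTCA, which TNACGTCA includes, was in 1.55% of windows and in none of the 4 genes' windows. In the Ddit3 window the capitals, 242 to 236 bases before the start, match the AP-1 motif TGANTCA, found in 6.75% of windows. The looser TGATGNAA, which includes TGATGCAA, was in 3.45% of windows and among the 4 genes only at that Atf3 site. CCAAT, sought on both strands and left in lower case here, was in 33.85% of windows, those of Ddit3 and Atf4 included. Atf5 has more than 1 listed start, and its window at chr7:44815659-44815908 held CCAAT. The Atf5 window at chr7:44816659-44816908 held none of the searched motifs. Apart from CCAAT, no searched motif was in the windows of Atf4 and Atf5. Each match is a description of letters.

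Atf3 had the widest range of ratios. Its probe set 104156_r_at read 0.28 and 0.15 in untreated Atf4+/+, 0.14 and 0.19 in untreated Atf4-/-, 7.37 and 16.59 in treated Atf4+/+, and 1.72 and 2.82 in treated Atf4-/-, for replicates 1 and 2. All 4 treated arrays lay above all 4 untreated arrays, and both treated Atf4+/+ arrays lay above both treated Atf4-/- arrays. Treated over untreated, the ratio of means was 55.7 in Atf4+/+ and 13.8 in Atf4-/-. Averaged over both genotypes, the log2 ratio of 104156_r_at rose by 4.15 ± 0.33 (SE, n = 4 against 4; limma adjusted p = 0.037). This was 1 of 6 member probe sets past the threshold, beside 0.0403% of all probe sets (5 of 12422, among them B3galt1, Ifrd1 and Igfbp1). The call ended without any 1 of the 8 arrays, with adjusted p from 0.0578 to 0.222 and differences from 3.86 to 4.44. Without the doubted arrays the difference was 4.07, with adjusted p = 0.413.

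**Figure D1:**
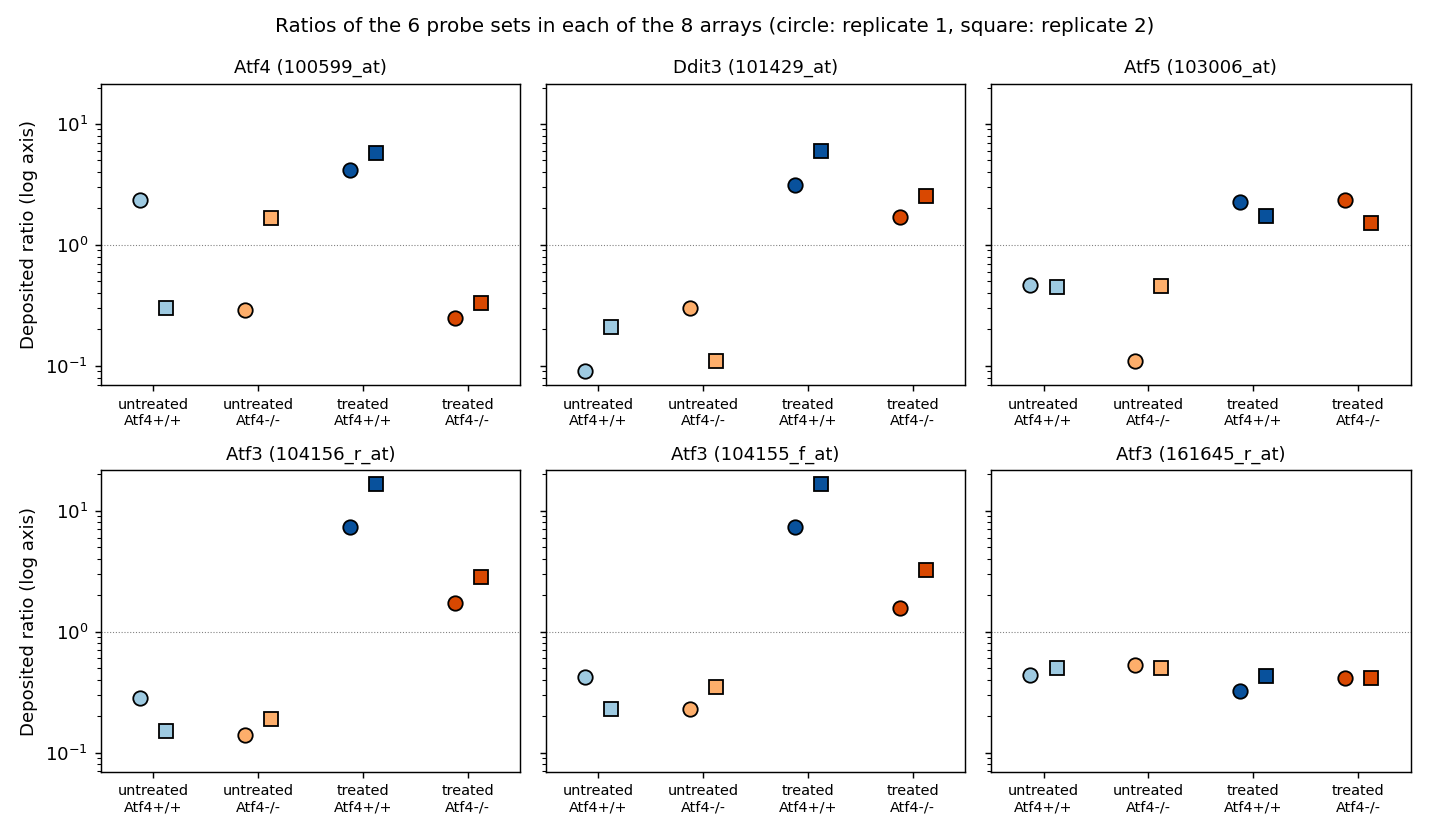
Deposited ratio, on a log axis with no unit, of each of the 6 probe sets in each of the 8 arrays, by labelled group (circles, replicate 1; squares, replicate 2; dotted line, ratio 1). Treated arrays lie above untreated arrays in every panel but those of Atf4 and of Atf3 161645_r_at, and the 2 arrays of each untreated group lie apart in the Atf4 panel.

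The other Atf3 probe sets did not both give that pattern. Probe set 104155_f_at, which the annotation takes from the same transcript, read 0.42 and 0.23 in untreated Atf4+/+, 0.23 and 0.35 in untreated Atf4-/-, 7.35 and 16.59 in treated Atf4+/+, and 1.58 and 3.22 in treated Atf4-/-. Again the treated arrays lay above the untreated ones, but the averaged log2 difference of 3.68 ± 0.37 missed the threshold (SE, n = 4 against 4; limma adjusted p = 0.0569). The suffix of this set marks probes that can also detect related sequences, and that of the other sets marks probes chosen under relaxed rules. Probe set 161645_r_at read between 0.32 and 0.53 in all 8 arrays. All 4 treated arrays lay below all 4 untreated arrays, at 0.43 or less against 0.44 or more. The share of all probe sets with this order was not counted. For this probe set the averaged log2 difference was -0.27 ± 0.15 (SE, n = 4 against 4; limma adjusted p = 0.545). Its median of 0.435 is far under 1, so its ratio is not to its own median, unlike that of the other Atf3 probe sets. Atf3 is therefore uncertain on this array to the extent that its probe sets differ.

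Ddit3 also read highest in treated Atf4+/+, next in treated Atf4-/- and lowest in the untreated arrays, whose genotypes overlapped. It read 0.09 and 0.21 in untreated Atf4+/+, 0.30 and 0.11 in untreated Atf4-/-, 3.12 and 5.95 in treated Atf4+/+, and 1.70 and 2.52 in treated Atf4-/-. Treated arrays lay above untreated arrays in both genotypes, and the treated Atf4-/- arrays lay between the untreated and the treated Atf4+/+ arrays. The ratio of treated to untreated means was 30.2 in Atf4+/+ and 10.3 in Atf4-/-. The averaged log2 difference of 3.55 ± 0.34 was the 4th highest of 12422 but just missed the threshold (SE, n = 4 against 4; limma adjusted p = 0.0569). It passed under 5 alternatives, with adjusted p from 0.0258 to 0.0464, and without the doubted arrays it was 3.49 with adjusted p = 0.413.

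Atf5 read higher in the treated arrays, at similar ratios in both genotypes. Its ratio was 0.47 and 0.45 in untreated Atf4+/+, 0.11 and 0.46 in untreated Atf4-/-, 2.27 and 1.72 in treated Atf4+/+, and 2.35 and 1.53 in treated Atf4-/-. The 4 treated arrays lay above the 4 untreated arrays, while the treated arrays of the 2 genotypes overlapped. The ratio of treated to untreated means was 4.34 in Atf4+/+ and 6.81 in Atf4-/-, where the array at 0.11 lowers the untreated mean. The averaged log2 difference was 2.22 ± 0.34 and did not pass (SE, n = 4 against 4; limma adjusted p = 0.143). Without the doubted arrays it was 2.56.

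Atf4 itself had no common direction. With AP20187 it read 4.17 and 5.75 in arrays labelled Atf4+/+ and 0.25 and 0.33 in arrays labelled Atf4-/-. The treated Atf4+/+ arrays were the highest of the 8 and the treated Atf4-/- arrays spanned the low readings of the untreated arrays. The log2 difference with AP20187 was 2.33 ± 0.99 in Atf4+/+ (SE, n = 2 against 2; limma adjusted p = 0.559) and -1.10 ± 0.99 in Atf4-/- (adjusted p = 0.81). Without the doubted arrays these became 1.02 and -0.008, so the size of both rested on those arrays, which were picked by their Atf4 ratios. The averaged difference was 0.62 ± 0.70 (adjusted p = 0.761), and 0.51 without the doubted arrays.

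Within a genotype no member passed the test. In Atf4+/+ the log2 differences were 5.18 ± 0.46 for Atf3 104156_r_at, 4.75 ± 0.52 for Atf3 104155_f_at, 4.18 ± 0.48 for Ddit3 and 1.89 ± 0.48 for Atf5 (SE, n = 2 against 2; limma adjusted p from 0.0765 to 0.373). In Atf4-/- they were 3.13 ± 0.46, 2.62 ± 0.52, 2.91 ± 0.48 and 2.54 ± 0.48 in the same order (adjusted p from 0.239 to 0.347). Without the doubted arrays, Atf3 104156_r_at, Ddit3 and Atf5 differed by 4.88, 4.54 and 1.86 in Atf4+/+ and by 3.26, 2.44 and 3.25 in Atf4-/-. Atf3 104156_r_at had the highest difference of all probe sets in Atf4-/- and the 3rd highest in Atf4+/+. All 6 member probe sets missed the threshold in both genotypes, where limma called 0.00805% of all probe sets (1) in Atf4+/+ and 0% in Atf4-/-. At an unadjusted p under 0.05 there were 4 members of 6 in either genotype, and 1130 and 922 of 12422 probe sets.

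**Figure D2:**
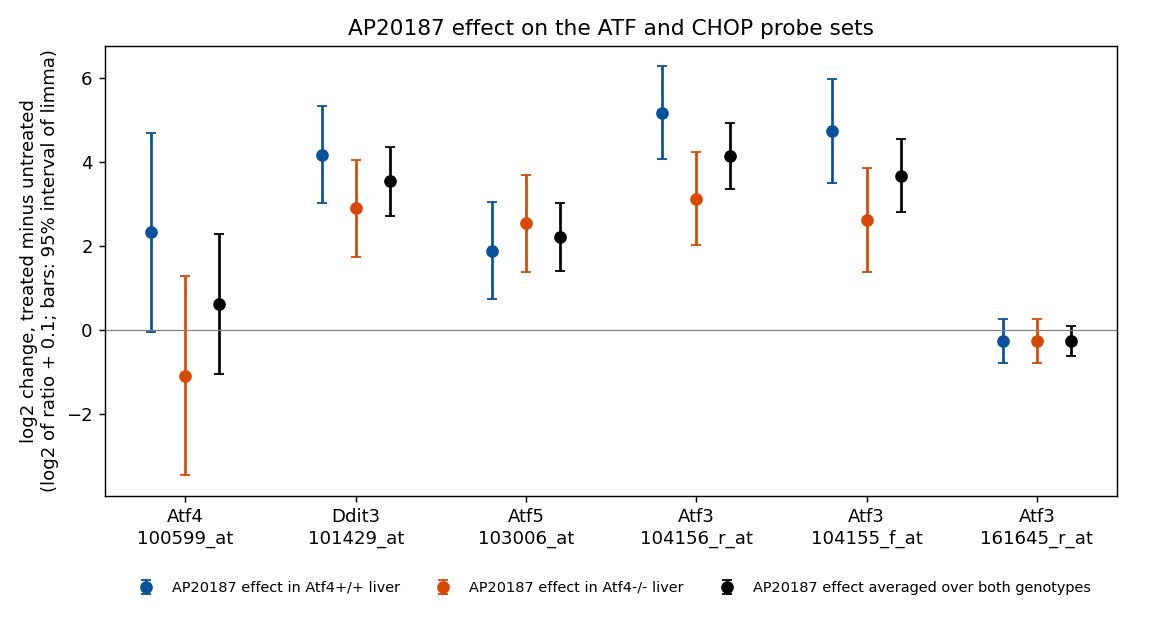
Log2 difference of treated minus untreated arrays, on log2(ratio + 0.1), for each of the 6 probe sets in Atf4+/+ (blue), in Atf4-/- (orange) and averaged over both (black); points are limma estimates and bars their 95% intervals. The averaged estimate is 4.15 for Atf3 104156_r_at, 3.55 for Ddit3, 2.22 for Atf5 and 0.62 for Atf4, whose bars are the widest.

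Read by overlap of arrays, 4 of the 6 probe sets had all treated above all untreated arrays, a pattern found in 4.19% of all probe sets. In Atf4+/+, 5 of 6 had both treated above both untreated arrays, against 16.7% of all probe sets. In Atf4-/-, 4 of 6 did, against 20.1%. Both treated Atf4+/+ arrays lay above both treated Atf4-/- arrays in 4 of 6, against 15.3%. These were Atf4, Ddit3, Atf3 104155_f_at and Atf3 104156_r_at. Atf4 is the gene that the genotype labels name, so its place in this count may follow from the design. The 3 Atf3 sets share a gene, and the comparisons share arrays, so these counts are not independent of each other.

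The genotypes were then compared among treated livers, where no array was doubted. Atf4 was 17.1 times higher in the mean of the treated Atf4+/+ than of the treated Atf4-/- arrays, with a log2 difference, Atf4-/- minus Atf4+/+, of -3.69 ± 0.99 (SE, n = 2 against 2; limma adjusted p = 0.712). It was the third lowest of the 12422 differences. For Atf3 104156_r_at the mean was 5.28 times higher and the log2 difference -2.28 ± 0.46 (adjusted p = 0.537), and for 104155_f_at these were 4.99 times and -2.24 ± 0.52. For Ddit3 the mean was 2.15 times higher and the log2 difference -1.02 ± 0.48 (adjusted p = 0.952). Atf5 differed by -0.06 ± 0.48, with a 95% interval from -1.22 to 1.10. None of the 6 passed, nor did any probe set (0%), and 3 of 6 had an unadjusted p under 0.05, beside 659 of 12422. Those 3 were Atf4, the gene that the genotype labels name, Atf3 104155_f_at and Atf3 104156_r_at. Without treated Atf4+/+ replicate 2, the array with the highest Atf3 and Ddit3 ratios, the differences were -1.70 for Atf3 104156_r_at and -0.57 for Ddit3. That array also had the lowest log2 of the 5′ over the 3′ probe set of Actb, at -0.64 against -0.19 or higher elsewhere. For Gapdh the same value was -0.06, close to the -0.05 of untreated Atf4+/+ replicate 1. The mean of hepatocyte markers was lowest in that array, at -0.40. Their median there was -0.115, above the -0.159 of treated Atf4+/+ replicate 1. Between the treated genotypes, 9 of 9 hepatocyte markers were higher in Atf4-/-, 0 of them at an unadjusted limma p under 0.05. Their median log2 difference was 0.204 against 0.044 over all probe sets. The part of these values in the result was not tested.

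The difference between the AP20187 effects, Atf4-/- minus Atf4+/+, asks whether the response depended on Atf4. It was -2.05 ± 0.65 for Atf3 104156_r_at, -2.13 ± 0.73 for Atf3 104155_f_at, -1.28 ± 0.68 for Ddit3, 0.65 ± 0.68 for Atf5 and -3.43 ± 1.39 for Atf4 (SE; n = 2 in each of the 4 groups; limma adjusted p from 0.901 to 0.945). None of the 6 passed, with 0% of all probe sets called, and 3 of 6 had an unadjusted p under 0.05, as did 678 of 12422. Those 3 were again Atf4, Atf3 104155_f_at and Atf3 104156_r_at. Without the doubted arrays the differences of effects were -1.61 for Atf3 104156_r_at, -2.10 for Ddit3, 1.39 for Atf5 and -1.03 for Atf4, with 0 probe sets called by limma. Those of Ddit3, Atf5 and Atf4 moved by over 1.5 times. Without 1 array, Ddit3 ranged from -1.74, without untreated Atf4-/- replicate 2, to -0.81, without untreated Atf4-/- replicate 1. Atf5 ranged from -0.06, without untreated Atf4-/- replicate 1, to 1.36, without untreated Atf4-/- replicate 2. Among untreated livers, none of the 6 passed (limma adjusted p, 0% called, 0 of 6 and 661 of 12422 at an unadjusted p under 0.05). Atf4 there differed by -0.26 ± 0.99 as labelled and by -2.66 without the doubted arrays. The latter value was set by picking those arrays on their Atf4 ratios and is no result about genotype. Ddit3, Atf5 and Atf3 104156_r_at differed by 0.26, -0.71 and -0.22 as labelled, and by 1.07, -1.44 and -0.66 without the doubted arrays.

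**Figure D3:**
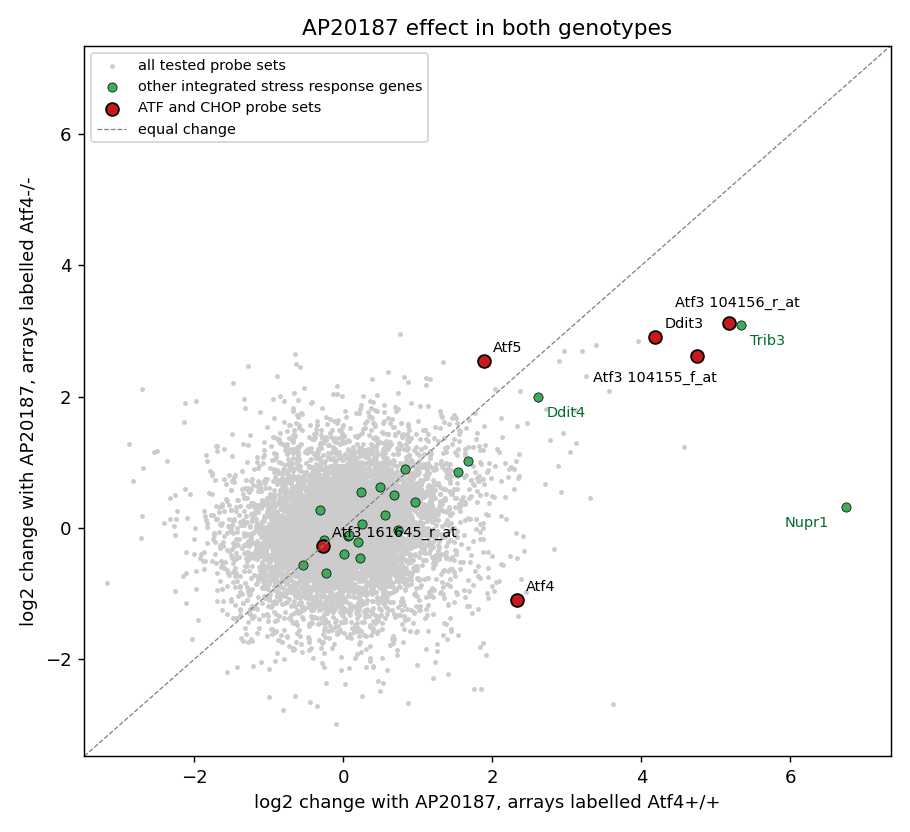
Log2 difference with AP20187 in arrays labelled Atf4+/+ (x axis) against that in arrays labelled Atf4-/- (y axis), on log2(ratio + 0.1), for all 12422 tested probe sets (grey), the other integrated stress response genes (green) and the 6 member probe sets (red); the dashed line marks equal change. Atf3 104156_r_at (5.18, 3.13) and Ddit3 (4.18, 2.91) lie under the line, Atf5 (1.89, 2.54) above it, and Nupr1 at 6.74 and 0.31. The axes share the estimate of spread but no arrays.

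For each factor the genes with the most similar profile over the 8 arrays were found by the root mean square difference of centred log2 values, with 7859 genes compared. Atf4 came closest to Cars, a gene for a cysteinyl-tRNA synthetase, at 0.401 against a median of 1.65 over the genes. Cars read 3.0 and 0.52 in untreated Atf4+/+, 0.60 and 1.40 in untreated Atf4-/-, 5.21 and 5.23 in treated Atf4+/+, and 0.56 and 0.58 in treated Atf4-/-. Like Atf4 it was high in replicate 1 of untreated Atf4+/+ and replicate 2 of untreated Atf4-/-, and low in the other untreated arrays. Cars was picked for its likeness to Atf4 over these same arrays, so it gives no separate check of the labels. Odf2l at 0.771 and Mycl at 0.847 came next.

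Atf3 came closest to Trib3, a gene for a pseudokinase, at 0.50 against a median of 2.31. Trib3 read 0.06 and 0.09, 0.03 and 0.27, 3.78 and 12.75, and 1.80 and 1.73 in untreated Atf4+/+, untreated Atf4-/-, treated Atf4+/+ and treated Atf4-/-. Its averaged log2 difference was 4.21 ± 0.48 (SE, n = 4 against 4; limma adjusted p = 0.0786). B3galt1 at 0.814 and Snhg5 at 0.823 came next, and Ddit3 stood at 0.721 from Atf3. Ddit3 came closest to B3galt1 at 0.567, Ifrd1 at 0.568 and Snhg1 at 0.705, against a median of 1.90. Atf5 came closest to Igfbp1 at 0.458, Sars, a gene for a seryl-tRNA synthetase, at 0.53, and Pspc1 at 0.54, against a median of 1.27. The likeness is a description over 8 arrays that share the treatment.

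**Figure D4:**
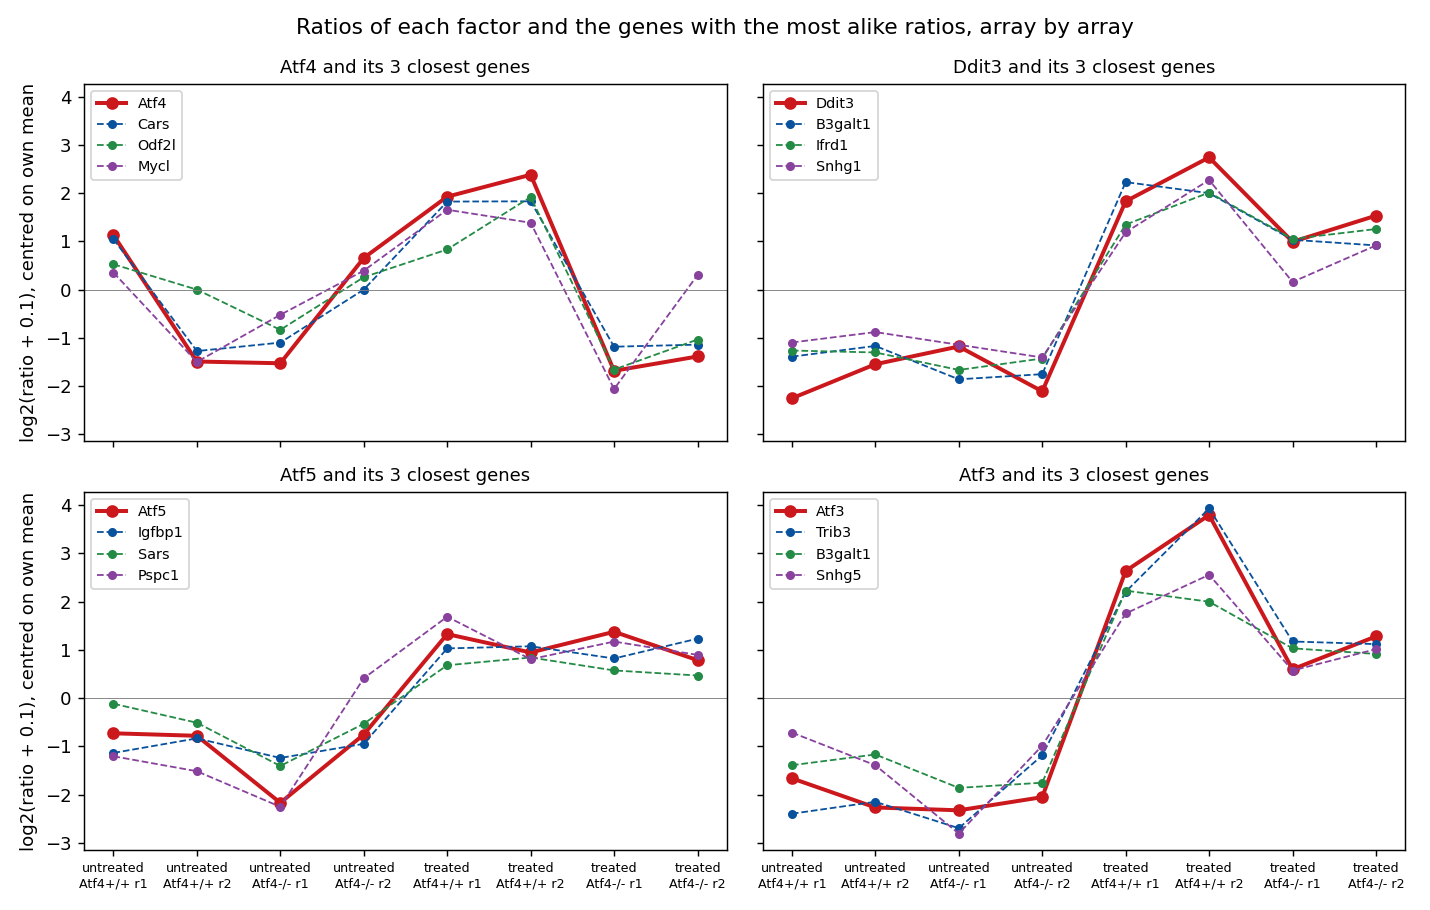
Log2(ratio + 0.1), centred on each gene's own mean over the 8 arrays (y axis), in each array (x axis, by labelled group and replicate r1 or r2) for each factor (red) and the 3 genes closest to it by root mean square difference (dashed); lines only join the points of a gene. Atf4 and Cars share their high and low arrays, and Atf3 and Trib3 are highest in treated Atf4+/+ replicate 2. The likeness follows from how the genes were picked.

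Other genes of the integrated stress response, 22 measured of 30 listed, had no member past the test in the averaged comparison. Without adjustment, 8 were higher and 1 lower with AP20187 at p under 0.05, beside 765 higher and 640 lower of all 12422 probe sets, and 13 of 22 lay above 0, with a median log2 difference of 0.37 against -0.04 over all probe sets. Arrays of the treated groups lay above all untreated arrays in 6 of 22 (27.3%), beside 4.19% of all probe sets. Genes of this and the following lists count 1 probe set each, picked in part for small SD within groups. The 4.19% covers probe sets without such a choice, and the lists were chosen with earlier results known, so these shares are not fully comparable. Nupr1, which encodes a stress-induced chromatin protein, had the widest gap between genotypes, with ratios of 0.15 and 0.15 in untreated Atf4+/+, 0.45 and 1.55 in untreated Atf4-/-, 18.55 and 38.4 in treated Atf4+/+, and 2.54 and 0.43 in treated Atf4-/-. Its log2 difference with AP20187 was 6.74 in Atf4+/+ and 0.31 in Atf4-/- (SE 0.86 each, n = 2 against 2; limma adjusted p = 0.11 and 0.947), and the difference of effects was -6.43 ± 1.22 (adjusted p = 0.594). Ddit4, an inhibitor of the kinase complex mTORC1, and Stbd1, a glycogen-binding protein, had averaged log2 differences of 2.30 and 1.35.

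Of 32 other basic leucine zipper genes measured of 45 listed, none passed, and 11 were higher and 2 lower at an unadjusted p under 0.05, beside 765 and 640 of 12422 probe sets. In 10 (31.2%) all treated lay above all untreated arrays, beside 4.19% of all probe sets, and the median log2 difference was 0.28 against -0.04 over all. Those with the smallest p were Xbp1, which encodes the factor of the IRE1 branch of endoplasmic reticulum stress (0.98 ± 0.17), Cebpg, a C/EBP partner (1.19 ± 0.24), Nfil3, a repressor linked to the circadian clock (1.37 ± 0.28), and Jun, an AP-1 subunit (0.84 ± 0.20; SE, n = 4 against 4; limma adjusted p from 0.182 to 0.267). Their ratios between the treated genotypes differed by less than 1 on the log2 scale. Of 19 measured genes of the ATF6 and XBP1 branches of 22 listed, none passed, 4 were higher and 1 lower without adjustment, beside the same 765 and 640, and the median was 0.14 against -0.04. All treated lay above all untreated arrays in 4 of 19 (21.1%), beside 4.19%. Dnajb9 and Hspa5, chaperone genes, had 0.78 and 0.65, and Atf6, a sensor of that stress, 0.80. Cebpb, Cebpd, Cebpg, Xbp1 and Atf6 stand in more than 1 list, so the counts of these lists share genes.

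Marker lists showed these differences beside those of the factors. Of 9 hepatocyte markers none passed. At an unadjusted p under 0.05, 1 was higher and 2 lower, beside 765 and 640 of all 12422 probe sets. All treated lay above all untreated arrays in 2 (22.2%), beside 4.19% of all probe sets. They lay below in 2, a pattern not counted over all probe sets. The median was -0.13 against -0.04 over all probe sets. Averaged log2 differences were -1.02 for Apoa2, an apolipoprotein gene, and -0.57 for Ttr, whose promoter drives the transgene. They were 0.59 for Fgb, a fibrinogen chain, and 0.29 for Tat, a tyrosine-degrading enzyme. Of 22 markers of other cell types none passed, and 0 were higher and 1 lower without adjustment, beside the same 765 and 640. Of the 22, 11 lay above 0 and 11 below, with a median of -0.002. All treated lay above all untreated arrays in 0, beside 4.19%, and below in 1. The 4 with the smallest p were Vwf of endothelium (-0.49), Cd79a of B cells (0.75), Cd3g of T cells (-0.87) and Cela1 of pancreas (-0.37). Cd3g read 3.55 in the doubted untreated Atf4-/- replicate 2 and 0.98 or less elsewhere. The part of the marker genes in the differences of the 4 factors was not tested.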

How the data were processed

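Expression was measured on 8 single-colour arrays. Per the file headers and the values, the authors deposited 1 table of linear ratios in steps of 0.01, whose row median was at least 0.99 in 85.8% of probe sets. The sources used here do not state the summary, scaling or divisor of the signals. Per the labels' protocols, RNA was extracted with STAT60 and RNeasy and labelled with biotin.

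With 66 control probe sets removed, tests covered 12422, of which 10833 named 1 gene, 396 several and 1193 none; 10817 matched the RefSeq gene table by gene identifier. The means of the arrays after trimming 2% lay between 0.937 and 0.98, so the table was used as deposited. Values entered as log2(ratio + 0.1). A model with a mean for each of the 4 groups was fitted in limma 3.58.1, run in R 4.3.3 with statmod 1.5.0, and moderated by eBayes (4 residual and 2.37 prior degrees of freedom), for 6 comparisons. The fit was tested on simulated data. No arrays held duplicated values: at most 1.9% of ratios were identical between 2 arrays. No batch is given in the labels. Figures used Python 3.11.15, pandas 2.3.3, numpy 2.4.6 and matplotlib 3.10.9.

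The members and gene lists were chosen with earlier results of these data known. Named were all member probe sets, the 3 genes closest to each factor, and up to 4 genes of each list with the smallest p in the averaged effect. Where a gene had several probe sets, the choice went by row median (0.99 or more), next by a name with no suffix letter, and last by the smaller SD within groups. Upstream sequences came from RefSeq, GRCm38.p6. Alternatives were pseudocounts of 0.02 and 0.5, 2 scalings, a filter on the row median, robust moderation, no genotype term in the averaged effect, and leaving out arrays.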

Additional observations from a re-analysis of the deposited data

Results flagged for a closer look

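Atf4 stood out because its treated arrays moved in opposite directions in the 2 genotypes as labelled. Against the mean log2 value of the untreated arrays of their own genotype, treated Atf4+/+ replicates 1 and 2 lay at 2.11 and 2.56 and treated Atf4-/- replicates 1 and 2 at -1.25 and -0.95. The difference of the effects, Atf4-/- minus Atf4+/+, was -3.43 and did not pass limma's test of the difference (adjusted p = 0.909). Without the doubted untreated arrays, which were picked by their Atf4 ratios, it was -1.03. Because the untreated arrays of a genotype differed from each other by 2.62 and 2.18 on the log2 scale, the untreated means are not close to any array.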

How the results depend on the processing

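Over all alternatives, 564 values for the members and the counts of calls kept their direction and side of the threshold, 27 counts moved by over 1.5 times, 10 values gained a call, 10 lost one and 20 changed sign. In the averaged AP20187 effect, 5 were called, and 3 with a pseudocount of 0.02, 8 with 0.5, 9 with trimmed mean scaling, 12 with quantile normalization, 10 with the filter on the row median, 8 with no genotype term, 0 without both doubted arrays and 0 to 2 without 1 array. In Atf4+/+, 1 was called, and 3 with quantile normalization, 8 with the filter, 0 without both doubted arrays and 0 to 0 without 1 array. For the difference of effects the filter gave 2. Fewer probe sets are tested under the filter and fewer arrays remain when arrays are left out; the cause of the other shifts was not tested.

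Atf3 104156_r_at lost its averaged call with no genotype term (4.15, adjusted p = 0.112), without both doubted arrays (4.07) and without any 1 array (3.86 to 4.44), and gained a call in Atf4+/+ with quantile normalization (4.46) and the filter (5.18). Ddit3 gained an averaged call with a pseudocount of 0.5 (2.39), trimmed mean scaling (3.56), quantile normalization (3.51), the filter (3.54) and no genotype term (3.54). Atf3 104155_f_at gained one with trimmed mean scaling (3.70), quantile normalization (3.41) and the filter (3.68). Neither Ddit3 (3.31 to 3.78) nor Atf3 104155_f_at (3.39 to 3.97) passed without any 1 array.

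Signs turned only in values that did not pass the test. For the difference of effects of Atf3 161645_r_at these were -0.007 with a pseudocount of 0.5, -0.092 with quantile normalization, -0.11 without both doubted arrays and -0.17 to 0.17 without 1 array, and for Atf5 -0.056 to 1.36 without 1 array. Between treated genotypes Atf5 was 0.079 with quantile normalization and -0.35 to 0.24 without 1 array, and Atf3 161645_r_at -0.055 to 0.28. Between untreated genotypes, without 1 array, Atf4 ranged from -1.57 to 1.06, Ddit3 from -0.21 to 0.72, Atf5 from -1.42 to 0.0, Atf3 104155_f_at from -0.43 to 0.22 and Atf3 104156_r_at from -0.53 to 0.078. The averaged effect of Atf4 ranged from -0.038 to 1.27, and that of Odf2l was -0.21 with a pseudocount of 0.02 and -0.25 to 0.30 without 1 array. No paired analysis was possible because the labels carry no replicate numbers.

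The limits are 2 arrays a group, unknown signal over background, and untreated arrays whose Atf4 ratio stands against their labels.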
